A study of Homo sapiens with 6 samples.

Results

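The SNARE and exocytosis machinery examined here is a list of 53 genes given by symbol, and each of the 53 had a locus in the authors' deposited counts. Of these, 51 genes had an adjusted p, out of 30206 tested loci among 61695 in all. The cells were EndoC-βH1, a human pancreatic beta cell line derived from fetal pancreas and immortalised with a viral T antigen and telomerase. The 3 cytokine libraries came from cells given IL-1β at 5 ng/ml, TNF-α at 10 ng/ml, IFN-γ at 50 ng/ml and IL-17 at 100 ng/ml together for 24 h. The 3 control libraries came from the same line without the cocktail. All cells had adhered for 24 h at 75000 per well in medium with 11 mM glucose. One label describes the control cells as taken ahead of the cytokines, while the extraction protocol gives 24 h for cells with and without them, so the cocktail and time in culture cannot be told apart from these sources. Every library came from a single line, and the labels do not say whether libraries of a group were separate cultures. A p-value here thus sets the group difference only against the spread of these libraries, and that spread may be technical.

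Regulated exocytosis fuses a hormone granule with the plasma membrane when calcium enters the cell. A vesicle SNARE of the VAMP family zips together with a syntaxin and a SNAP25-type protein on the target membrane, while Munc18-type proteins guide assembly, synaptotagmins and double C2 proteins sense calcium, and NSF with its adaptor SNAP takes the spent complex apart. Priming factors of the CAPS and Munc13 families and RIM scaffolds make docked granules ready to fuse, and effectors of RAB27 and RAB3 tether granules to the membrane. In pancreatic beta cells this machinery releases insulin, and the best known fusion complex there is STX1A with SNAP25 and VAMP2.

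With cytokines the machinery split in direction within each of its 5 role classes. Of the 51 tested genes, 21 rose, 18 fell and 12 did not pass an adjusted p of 0.05 in the authors' deposited DESeq results. That is 76.5% called, against 37.7% of all 30206 tested loci, of which 18.0% rose and 19.7% fell. Most members were abundant, and among loci with a mean of at least 1000 normalized counts the called share was 88.2% of 34 members and 78.2% of 7868 loci. By class, the abundant members called were 12 of 13 SNAREs, 4 of 6 SNARE-binding proteins and 7 of 8 synaptotagmins with double C2 proteins. Among RAB effectors they were 2 of 2, and among priming factors 5 of 5. The median log2 fold change of the members was 0.04, and that of all tested loci was 0.05. For all loci of at least 1000 mean counts the median was -0.06. Most changes were small: 9 members rose and 4 fell by at least 1.5-fold, where 9.37% of all tested loci rose and 6.76% fell past both that size and the adjusted p (16.1% in either direction). The largest rises were those of CADPS2, SYTL3, SYTL2 and STX4, and the largest falls were those of RIMS4, SYTL5, SYT16 and UNC13B. The deposited tables hold 1 value per group and the error of the fold change but none per library, so libraries cannot be shown one by one, and whether the groups overlap was not seen.

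**Figure D1:**
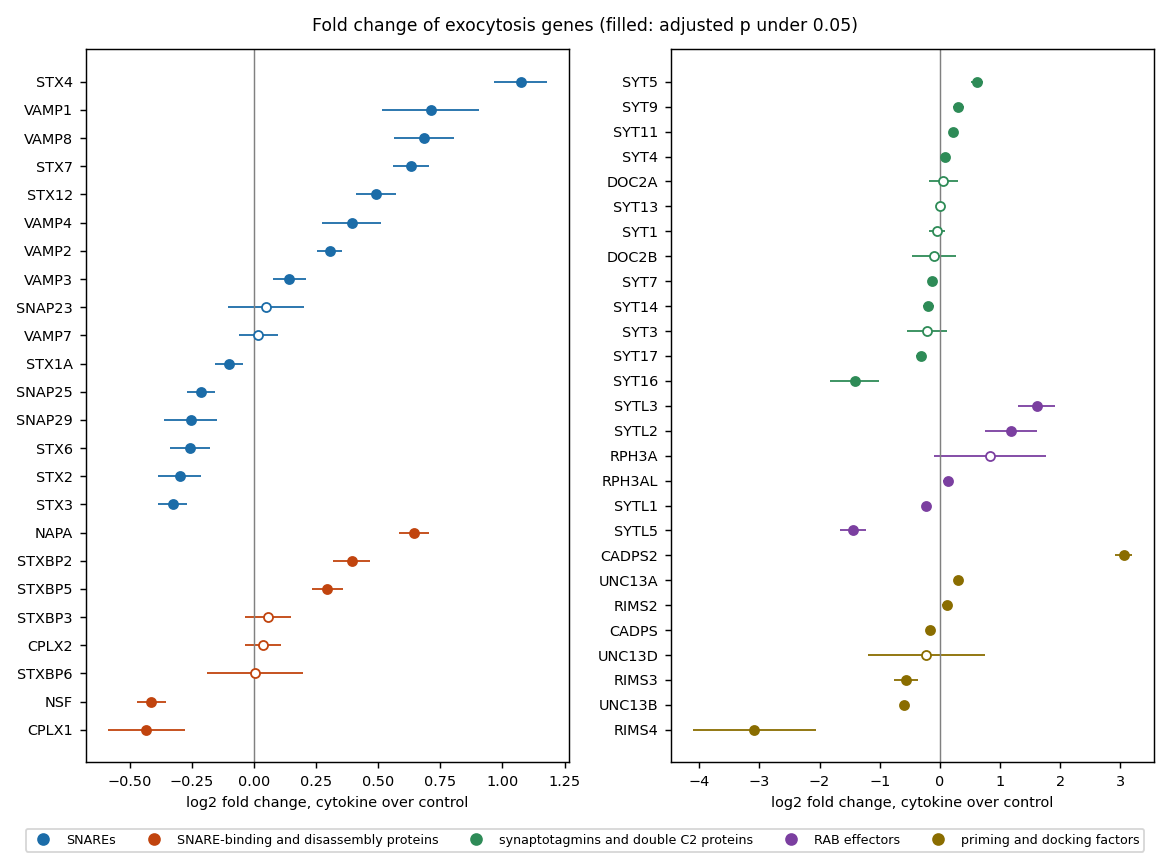
Log2 fold change, cytokine over control, of the 51 tested exocytosis genes from the authors' deposited table, with bars for the 95% interval (1.96 SE, 3 libraries per group) and colours for role classes. Filled points passed an adjusted p of 0.05. CADPS2 stands at 3.06 and RIMS4 at -3.08, and each of the 5 role classes holds points on both sides of 0.

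Levels are given as FPKM, a fragment count scaled to transcript length and library size that can be compared between genes, and each is the authors' deposited value for a group. These are levels of whole loci, and in control cells 3 loci stood at 100 FPKM or more, those of CADPS, STX1A and STXBP2. The STXBP2 locus is shared with another gene, and own transcripts of STXBP2 had 33.0 FPKM in control. Another 30 members lay between 10 and 100 FPKM, 10 lay between 1 and 10, and 10 lay under 1 FPKM. The low group held SYTL2, SYTL3, SYTL4, SYT16, DOC2B, RPH3A, UNC13D, RIMS1 and RIMS4, and VAMP7 as well. VAMP7 is listed at 0 FPKM in both groups although its locus in the count table had a mean of 2327 normalized counts. In bulk RNA, fewer cells that express a gene and less RNA of that gene per cell cannot be told apart.

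**Figure D2:**
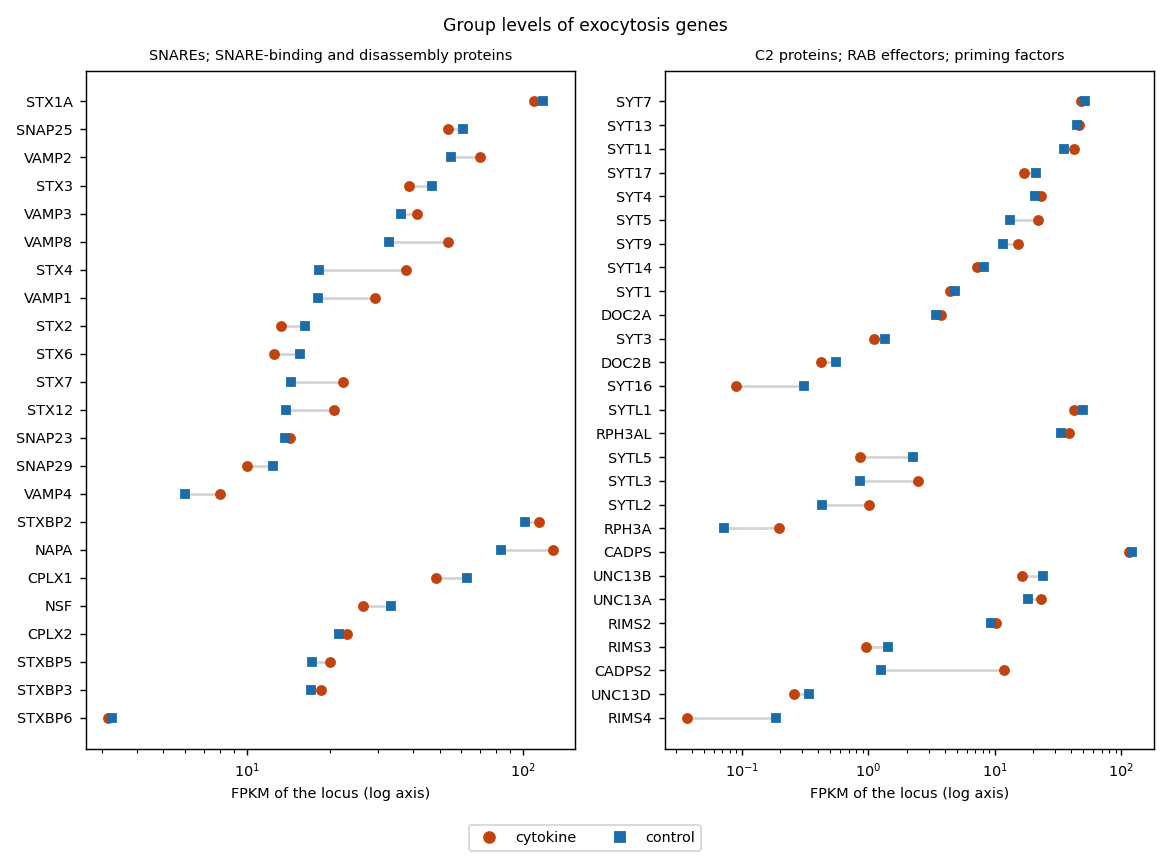
Authors' deposited group FPKM of each exocytosis gene on log axes, with circles for cytokine and squares for control; each symbol is 1 group value with no error. Genes under 0.01 FPKM in control are not drawn. CADPS2 had 11.9 FPKM with cytokines and 1.26 FPKM in control, while CADPS had 115 and 122 FPKM.

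Among the plasma membrane syntaxins, STX4 rose while the other members of the group fell slightly. STX4, a syntaxin used in glucose transporter traffic and in insulin granule fusion, lies on the plus strand of chromosome 16 from 31032889 to 31042975 in hg38 (gene bounds here and below from GENCODE 44). It averaged 1963 normalized counts with cytokines and 933 in control, group means worked out from the authors' deposited mean and fold change. Its log2 fold change in the authors' deposited table was 1.07 ± 0.05 (SE; adjusted p = 3.79e-84), and its level was 37.7 FPKM with cytokines and 18.3 FPKM in control. STX1A, the most abundant listed SNARE by count and the syntaxin of the classical complex, had 110 FPKM with cytokines and 118 FPKM in control. Its fold change was -0.10 ± 0.03 (adjusted p = 0.00200) in the authors' deposited count table, and Cuffdiff, the authors' other test, gave q = 0.408. With the fold changes re-centred on abundant loci the same gene had -0.04 and an adjusted p of 0.264, so the call of STX1A depends on the scaling. STX3, a syntaxin of apical membranes and of fusion between granules, fell by 0.33 ± 0.03 on the log2 scale, with 38.6 FPKM in cytokine cells and 47.1 FPKM in control cells. STX2, a syntaxin of the cell surface, fell by 0.30 ± 0.04, with 13.4 FPKM in cytokine cells and 16.2 FPKM in control cells. Summed over STX1A, STX2, STX3 and STX4, the deposited FPKM came to 199.9 with cytokines and 200.1 in control. STX4 made up 25.5% of STX4 and STX1A together with cytokines and 13.4% in control.

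Syntaxins of the endosomal system also differed among themselves. STX7, a late endosomal syntaxin, had 22.3 FPKM with cytokines and 14.5 FPKM in control, and its log2 fold change in the authors' deposited table was 0.63 ± 0.04 (adjusted p = 1.07e-65). STX12, which serves recycling endosomes, had 20.7 FPKM with cytokines and 13.9 FPKM in control and a fold change of 0.49 ± 0.04. STX6, a SNARE of the trans-Golgi network, moved the other way, with 12.5 FPKM in cytokine cells, 15.6 FPKM in control cells and a deposited fold change of -0.26 ± 0.04. KIAA1614, next to STX6 and taken up after its values were seen, had 8.92 FPKM with cytokines and 19.7 FPKM in control, and its part in the STX6 value was not tested.

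Among the vesicle SNAREs, 5 of 6 VAMP genes rose and 0 fell. Of the 4 with at least 1000 mean counts, 3 were called (75.0%), close to the 78.2% of all loci that abundant. VAMP8, a SNARE of endosomes and of secretory granules, had 53.4 FPKM with cytokines and 32.8 FPKM in control, and its log2 fold change in the authors' deposited table was 0.68 ± 0.06 (adjusted p = 3.05e-27). VAMP4, of the trans-Golgi network, had 8.01 FPKM with cytokines and 5.97 FPKM in control and a fold change of 0.39 ± 0.06. VAMP2, the granule SNARE of the classical complex, had 70.2 FPKM with cytokines and 55.0 FPKM in control and a fold change of 0.30 ± 0.03. VAMP3, the close relative of VAMP2 on recycling vesicles, changed least of the 5, by 0.14 ± 0.03, with 41.5 FPKM in cytokine cells and 36.1 FPKM in control cells. VAMP7, a SNARE of late endosomes and lysosomes, did not pass the test, and its 95% interval ran from -0.06 to 0.10. VAMP8 made up 43.2% of the VAMP8 and VAMP2 loci together with cytokines and 37.3% in control. Counting own transcripts alone, the share was 49.5% with cytokines and 44.3% in control.

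The SNAP25 family had 0 genes higher and 2 lower. Both of the lower genes had at least 1000 mean counts, where 78.2% of all loci were called. SNAP25, the partner of STX1A at the plasma membrane, had 53.6 FPKM with cytokines and 60.9 FPKM in control, and a fold change of -0.21 ± 0.03 (adjusted p = 2.58e-12) in the authors' deposited table. SNAP29, which serves fusion of autophagosomes, had 10.1 FPKM with cytokines and 12.5 FPKM in control. For SNAP29 the authors deposited a fold change of -0.26 ± 0.06 (adjusted p = 1.60e-05) and a Cuffdiff q of 0.400. SNAP23, the broadly expressed relative of SNAP25, did not pass the test, with 14.4 FPKM in cytokine cells, 13.8 FPKM in control cells and a 95% interval of -0.10 to 0.20.

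The start regions of these genes were searched for motifs of factors that such cytokines are known to activate, and for that of REST, a repressor of neuronal genes. RefSeq promoters of GRCh38.p14, from 250 bases before to 50 bases after each start site, covered 40 of the 53 members with 62 windows. The motif TTCNNNGAA, called GAS and bound by STAT dimers, was found in 6 of 62 member windows (9.68%), against 7.66% of all 35116 windows; it reads the same on both strands in this form. The 6 genes were VAMP8, VAMP4, STX7, STX2, SYT4 and RIMS3, of which VAMP8, VAMP4, STX7 and SYT4 rose while STX2 and RIMS3 fell, so holders of the motif moved in both directions. The interferon-stimulated response element, ISRE, on either strand, was in 0 of 62 member windows, against 3.57% of all. The kappa B motif of NF-κB, on either strand, was in STXBP3, SYT5 and SYT9, or 4.84% of member windows against 5.91% of all. The letters TTCAGCACC, one end of the REST element RE1, searched on both strands, lay in UNC13A, from 6 to 14 bases after its start, and in 0.376% of all windows. A match is a string of letters and not a bound site, and a window without one says nothing of the factor. The 250 bases before a listed start site of 3 genes that rose and of 2 that fell are shown. They run 5′ to 3′ along the gene, with the GAS match in capitals. STX7 also has windows at other start sites, and those held no GAS match.
VAMP8 promoter, chr2:85577336-85577585, plus strand: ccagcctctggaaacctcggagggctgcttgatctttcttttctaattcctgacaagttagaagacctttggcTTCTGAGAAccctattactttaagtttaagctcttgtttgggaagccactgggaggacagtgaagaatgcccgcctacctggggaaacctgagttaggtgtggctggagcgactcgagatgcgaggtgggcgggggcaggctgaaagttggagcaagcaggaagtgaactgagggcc
VAMP4 promoter, chr1:171742066-171742315, minus strand: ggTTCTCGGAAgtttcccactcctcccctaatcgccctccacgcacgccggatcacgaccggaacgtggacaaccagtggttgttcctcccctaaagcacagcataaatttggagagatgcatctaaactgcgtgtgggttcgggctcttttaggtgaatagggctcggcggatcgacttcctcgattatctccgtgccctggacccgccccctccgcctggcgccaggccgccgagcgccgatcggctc
STX7 promoter, chr6:132513117-132513366, minus strand: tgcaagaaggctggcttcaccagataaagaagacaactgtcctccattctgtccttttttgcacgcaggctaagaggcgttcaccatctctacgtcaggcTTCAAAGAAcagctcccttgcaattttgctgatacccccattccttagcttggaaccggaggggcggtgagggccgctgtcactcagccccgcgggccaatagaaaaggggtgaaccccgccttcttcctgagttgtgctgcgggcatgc
STX2 promoter, chr12:130839251-130839500, minus strand: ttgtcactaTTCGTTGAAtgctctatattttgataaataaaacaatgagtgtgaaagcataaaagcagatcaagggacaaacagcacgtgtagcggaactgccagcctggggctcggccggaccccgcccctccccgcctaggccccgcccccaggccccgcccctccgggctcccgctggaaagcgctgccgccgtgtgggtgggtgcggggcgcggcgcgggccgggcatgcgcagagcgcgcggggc
RIMS3 promoter, chr1:40665683-40665932, minus strand: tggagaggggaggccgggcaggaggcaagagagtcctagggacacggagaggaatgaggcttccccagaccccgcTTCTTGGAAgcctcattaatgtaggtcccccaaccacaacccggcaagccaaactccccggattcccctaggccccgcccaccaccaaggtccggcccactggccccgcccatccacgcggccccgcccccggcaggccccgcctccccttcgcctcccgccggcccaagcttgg

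The shared loci limit what a VAMP or Munc18 value means, because the authors' assembled loci can hold more than 1 gene. Among the members, 14 loci carried another named gene of any kind and 5 carried another protein-coding gene. VAMP1, a synaptic relative of VAMP2 on the minus strand of chromosome 12 from 6462237 to 6470677, shared its locus with the antisense gene CD27-AS1. That locus had 29.1 FPKM with cytokines and 18.2 FPKM in control, and a fold change of 0.71 ± 0.10 (adjusted p = 4.79e-12) in the authors' deposited tables. Transcripts annotated to VAMP1 itself made up 2.63 FPKM of it with cytokines and 1.49 FPKM in control. The main one, VAMP1-201, rose, with 2.57 FPKM in cytokine cells, 1.22 FPKM in control cells and a Cuffdiff q of 0.000833. The neighbouring TAPBPL locus, singled out after its values were seen, had 30.2 FPKM with cytokines and 3.90 FPKM in control. Its part in the VAMP1 value was not tested, and no source used here says whether reads were counted by strand. The VAMP2 locus also held PER1, a circadian clock gene, and there the own transcripts of VAMP2 had 54.4 FPKM with cytokines and 41.2 FPKM in control, while those of other genes had 14.5 and 12.8 FPKM. The own transcript VAMP2-201 rose, with 46.6 FPKM in cytokine cells and 35.9 FPKM in control cells (q = 0.000833).

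**Figure D3:**
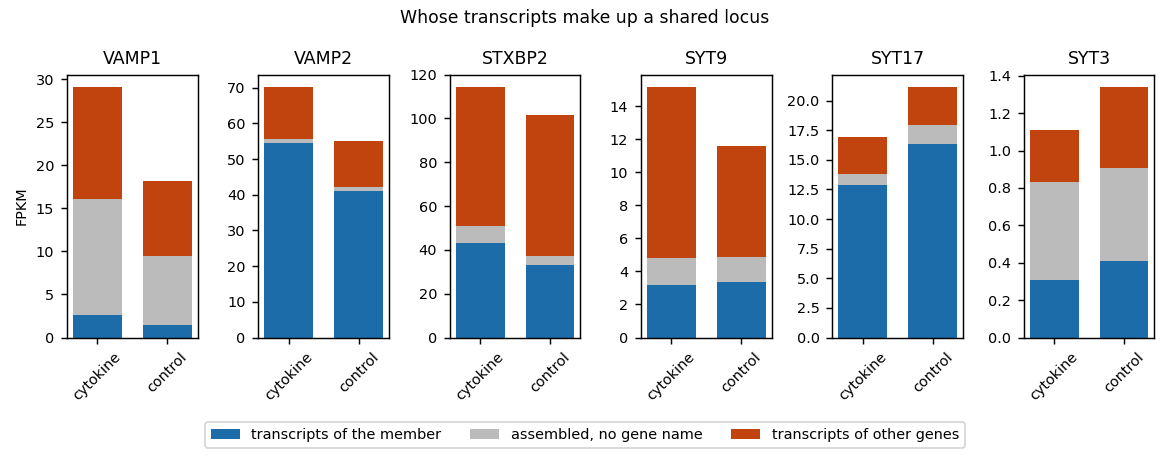
Authors' deposited FPKM of 6 loci that hold an exocytosis gene and another named gene, stacked by whose transcripts they are, with cytokine left of control. In the SYT9 locus the own transcripts had 3.20 FPKM with cytokines and 3.34 FPKM in control, and the difference between groups lies in transcripts of other genes, 10.4 and 6.72 FPKM.

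Of the 8 proteins that bind or take apart SNAREs, 3 rose, 2 fell and 3 did not pass the test, and the disassembly pair moved in opposite directions. NAPA, the adaptor α-SNAP that recruits NSF, had 129 FPKM with cytokines and 83.3 FPKM in control. The fold change of NAPA in the authors' deposited table was 0.64 ± 0.03 (adjusted p = 1.89e-94), and its transcript NAPA-201 rose as well, with 80.7 FPKM in cytokine cells and 52.0 FPKM in control cells. NSF, the ATPase that pulls complexes apart and the most abundant of this class by count, had 26.4 FPKM with cytokines and 33.4 FPKM in control, and the authors' fold change was -0.41 ± 0.03 (adjusted p = 1.30e-44). CPLX1, a complexin that clamps and promotes fusion, had 48.6 FPKM with cytokines and 62.7 FPKM in control. Its fold change was -0.43 ± 0.08 (adjusted p = 2.32e-07) in the authors' deposited table, and CPLX1 made up 67.8% of both complexins with cytokines and 74.4% in control. CPLX2, the other complexin, did not pass the test, with an interval of -0.04 to 0.11.

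STXBP5, or tomosyn, blocks SNARE assembly by occupying the place of a VAMP. In the authors' deposited tables it had 20.0 FPKM with cytokines, 17.2 FPKM in control, a fold change of 0.30 ± 0.03 (adjusted p = 3.36e-19) and a Cuffdiff q of 0.0580, so only the count test called it. STXBP2, or Munc18-2, shares its locus with PET100, an assembly factor of cytochrome oxidase. The locus had 114 FPKM with cytokines and 102 FPKM in control, and the authors deposited a fold change of 0.39 ± 0.04 (adjusted p = 1.99e-24) and a Cuffdiff q of 0.186. Own transcripts of STXBP2 had 43.4 FPKM with cytokines and 33.0 FPKM in control, and those of other genes had 63.6 and 64.4 FPKM. STXBP3, or Munc18c, the partner of STX4, did not pass the test, with 18.6 FPKM in cytokine cells, 17.1 FPKM in control cells and a 95% interval of -0.04 to 0.15. STXBP6, or amisyn, had an interval of -0.19 to 0.20.

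Of the 13 tested synaptotagmins and double C2 proteins, 4 loci rose, 4 fell and 5 did not pass the threshold. SYT5, a calcium-binding synaptotagmin of dense-core granules, lies on the minus strand of chromosome 19 from 55171196 to 55180289. It averaged 1888 normalized counts with cytokines and 1237 in control, and its fold change in the authors' deposited table was 0.61 ± 0.05 (adjusted p = 1.63e-31). The level of SYT5 was 22.0 FPKM with cytokines and 13.2 FPKM in control, and 2 of its transcripts passed Cuffdiff's test, the more abundant at 4.01 FPKM with cytokines and 2.03 FPKM in control. SYT11 and SYT4 are synaptotagmins whose C2 domains bind little or no calcium. SYT11 had 42.2 FPKM with cytokines and 35.0 FPKM in control and a fold change of 0.23 ± 0.02, and SYT4 had 23.2 and 20.8 FPKM and, by the authors' fit, a fold change of 0.09 ± 0.03 (adjusted p = 0.0189). SYT7, the high-affinity calcium sensor of slow insulin release and the most abundant of the class by count, had 47.7 FPKM with cytokines and 51.3 FPKM in control. In the authors' deposited tables SYT7 had a fold change of -0.14 ± 0.03 (adjusted p = 2.17e-06) and a Cuffdiff q of 0.236. SYT13 stood close to SYT7 in level, at 46.1 FPKM with cytokines and 44.5 FPKM in control. It did not pass the test, and its interval of -0.05 to 0.04 was the narrowest around 0 of the class.

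The SYT9 locus shows why the shared loci matter. SYT9 binds calcium and sits on granules, and its locus on chromosome 11 also holds OLFML1 and PPFIBP2. The locus had 15.2 FPKM with cytokines and 11.6 FPKM in control, with a fold change of 0.31 ± 0.05 (adjusted p = 5.35e-10) in the authors' deposited tables. Transcripts of SYT9 itself had 3.20 FPKM with cytokines and 3.34 FPKM in control, and its transcript SYT9-201 had a Cuffdiff q of 0.952. Of the 4 called higher in this class, SYT9 is thus the one whose own transcripts do not share the direction of the locus. SYT17, which fell by 0.32 ± 0.04, shares a locus with ITPRIPL2, and there the own transcripts had 12.9 FPKM with cytokines and 16.3 FPKM in control. SYT14 had 7.22 FPKM with cytokines, 8.25 FPKM in control and, in the authors' deposited tables, a fold change of -0.19 ± 0.05 (adjusted p = 0.000562) with a Cuffdiff q of 0.331. Own transcripts of SYT14 had 4.71 FPKM with cytokines and 4.59 FPKM in control, so they do not share the direction of the locus, and transcripts without a gene name had 2.51 and 3.65 FPKM. SYT16, a weakly expressed member, averaged 48.2 normalized counts with cytokines and 129 in control, and the authors' fold change was -1.42 ± 0.21 (adjusted p = 8.75e-11). SYT1, SYT3, DOC2A and DOC2B, the remaining members, did not pass the test. Their 95% intervals ran from -0.19 to 0.09 for SYT1, from -0.55 to 0.12 for SYT3, from -0.19 to 0.30 for DOC2A and from -0.47 to 0.27 for DOC2B.

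For the kappa B matches, the 250 bases before a start site of SYT5 and of STXBP3 are shown with the match in capitals. SYT5 rose, and STXBP3 did not pass the test. The SYT5 window shown belongs to a start site inside the gene bounds given above. The window at the outer start of SYT5, chr19:55180290-55180539, held no kappa B match. STXBP3 holds 2 matches, so the motif stood before a start site of a gene that moved and of one whose change was not detected.
SYT5 promoter, chr19:55179349-55179598, minus strand: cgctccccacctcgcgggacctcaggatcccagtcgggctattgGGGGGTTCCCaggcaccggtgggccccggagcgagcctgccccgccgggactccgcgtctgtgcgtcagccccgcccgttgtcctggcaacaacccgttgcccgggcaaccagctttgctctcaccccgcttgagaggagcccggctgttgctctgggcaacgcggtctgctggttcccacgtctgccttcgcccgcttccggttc
STXBP3 promoter, chr1:108746424-108746673, plus strand: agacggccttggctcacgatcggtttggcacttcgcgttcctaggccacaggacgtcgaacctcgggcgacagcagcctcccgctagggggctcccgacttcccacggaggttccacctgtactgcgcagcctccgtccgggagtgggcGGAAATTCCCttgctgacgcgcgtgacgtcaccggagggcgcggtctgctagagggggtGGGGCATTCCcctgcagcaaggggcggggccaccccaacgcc

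Among the RAB effectors 3 of 6 tested genes rose and 2 fell, and the largest changes were in weakly expressed genes. SYTL3, a synaptotagmin-like effector of RAB27 on the plus strand of chromosome 6 from 158650014 to 158764876, averaged 233 normalized counts with cytokines and 76.5 in control. In the authors' deposited table its fold change was 1.61 ± 0.16 (adjusted p = 3.67e-23), and its level was 2.48 FPKM with cytokines and 0.862 FPKM in control. DYNLT1, a dynein light chain gene beside SYTL3 that was singled out after its values were seen, had 500 FPKM with cytokines and 167 FPKM in control, with a fold change of 1.54. The part of DYNLT1 in the SYTL3 value was not tested. SYTL2 averaged 111 normalized counts with cytokines and 49.2 in control, with the authors' fold change at 1.18 ± 0.22 (adjusted p = 3.29e-07), and had 1.01 FPKM with cytokines and 0.426 FPKM in control. SYTL5 moved the other way, with 167 normalized counts in cytokine cells and 456 in control cells, and the authors deposited a fold change of -1.44 ± 0.11 (adjusted p = 7.03e-38) and a Cuffdiff q of 0.0843.

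SYTL1 and RPH3AL were the effectors present in quantity. SYTL1, the most abundant by count, had 42.1 FPKM with cytokines and 49.7 FPKM in control and, in the authors' deposited table, fell by 0.23 ± 0.03 (log2). RPH3AL, or Noc2, which is needed for normal insulin release in mice, had 38.6 FPKM with cytokines and 33.2 FPKM in control. The authors' fold change for it was 0.13 ± 0.04 (adjusted p = 0.00182), and Cuffdiff's q was 0.0803. RPH3A, or rabphilin, averaged 15.8 normalized counts over all libraries, and its interval of -0.10 to 1.76 is wide. SYTL4, or granuphilin, docks insulin granules in rodent beta cells, but its locus had a mean of 0.300 normalized counts and no adjusted p. Its level was listed at 0 FPKM with cytokines and 0.00362 FPKM in control. Summed over the 5 SYTL genes, the deposited FPKM came to 46.5 with cytokines and 53.2 in control, most of it SYTL1.

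The priming and docking factors held the widest range of the machinery, with 3 of 8 tested genes higher and 4 lower. CADPS2, or CAPS2, a calcium-dependent activator that primes dense-core granules, lies on the minus strand of chromosome 7 from 122318411 to 122886759. It averaged 2062 normalized counts with cytokines and 248 in control, 8.32-fold, with a log2 fold change of 3.06 ± 0.07 and an adjusted p listed as 0 in the authors' deposited table. Its level was 11.9 FPKM with cytokines and 1.26 FPKM in control. Of its 4 tested transcripts 2 passed Cuffdiff's test. These were CADPS2-205 and CADPS2-201, with 2.08 and 0.448 FPKM in cytokine cells, against 0.126 and 0.121 FPKM in control cells. The most abundant tested transcript in both groups, CADPS2-203, did not pass. Own transcripts of CADPS2 had 6.30 FPKM with cytokines and 0.541 FPKM in control, and transcripts without a gene name had 5.56 and 0.717 FPKM. CADPS, or CAPS1, the paralog and the most abundant member of the class, had 115 FPKM with cytokines and 122 FPKM in control. CADPS had a fold change of -0.16 ± 0.02 (adjusted p = 3.51e-14) in the authors' deposited table and a Cuffdiff q of 0.587. CADPS2 thus made up 9.34% of the FPKM of both loci with cytokines and 1.02% in control, and by own transcripts 6.43% and 0.567%.

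The Munc13 pair moved apart. UNC13B, or Munc13-2, had 16.3 FPKM with cytokines and 24.2 FPKM in control, and a log2 fold change of -0.60 ± 0.03 (adjusted p = 1.43e-97) in the authors' deposited table. Both tested transcripts of UNC13B fell, UNC13B-201 with 12.4 FPKM in cytokine cells and 17.3 FPKM in control cells, and UNC13B-206 with 3.63 and 6.20 FPKM. UNC13A, or Munc13-1, needed for normal insulin release in mice, had 23.0 FPKM with cytokines and 18.3 FPKM in control, and the authors' fold change was 0.30 ± 0.02 (adjusted p = 1.08e-38). UNC13B made up 41.6% of the pair with cytokines and 57.0% in control, and by own transcripts 49.7% with cytokines and 64.5% in control. UNC13D, the Munc13 of lymphocyte granules, averaged 14.3 normalized counts, and with an interval of -1.20 to 0.75 a change was not detectable at this depth.

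RIM genes were low except RIMS2. RIMS2, a RIM scaffold that serves granule docking in mouse beta cells, had 10.2 FPKM with cytokines and 9.24 FPKM in control. For RIMS2 the authors' fold change was 0.11 ± 0.04 (adjusted p = 0.0206), and Cuffdiff's q was 0.301. RIMS3, a short RIM with only the last C2 domain, had 0.949 FPKM with cytokines and 1.43 FPKM in control and, by the authors' fit, fell by 0.57 ± 0.10 on the log2 scale (adjusted p = 1.02e-07). RIMS4, another short RIM, averaged 4.45 normalized counts with cytokines and 37.7 in control, a fold change of -3.08 ± 0.52 (adjusted p = 1.85e-08) in the authors' deposited table, and Cuffdiff did not test it. RIMS1 had a mean of 0.625 normalized counts and no adjusted p.

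The authors' 2 tests were set side by side for 48 members tested by both. Both called 28 of them, all 28 in the same direction, the count test alone called 10, and Cuffdiff alone called 0. Cuffdiff called 35.7% of the 21865 loci it tested. The 10 members were SNAP29, STX1A, STXBP2, STXBP5, SYT7, SYT14, SYTL5, CADPS, RIMS2 and RPH3AL, among them 3 of the most abundant of a class, STX1A, SYT7 and CADPS.

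At the level of single transcripts the changes were sparser. The authors' deposited isoform table lists 505 transcripts of the members, of which 203 were tested. Cuffdiff called 15 of them higher and 9 lower, 11.8% against 9.87% of all 95649 tested transcripts, of which 5.17% were higher and 4.70% lower. The 24 called transcripts belong to 20 genes. Of 37 members with at least 2 tested transcripts, the most abundant one differed between groups in 4. STXBP5 was the 1 member with calls in opposite directions. There STXBP5-204 rose, with 4.54 FPKM in cytokine cells and 3.14 FPKM in control cells (q = 0.00371), while STXBP5-203 fell, with 1.04 and 2.48 FPKM (q = 0.0232). STXBP5-201 led with cytokines, at 5.00 FPKM, against 3.11 FPKM in control, where STXBP5-204 led, but its q was 0.0743. In RIMS2 the transcript ENST00000339750.3 led with cytokines, at 1.63 FPKM, against 0.855 FPKM in control (q = 0.0276), and ENST00000626043.1 led in control, with 1.30 FPKM in cytokine cells and 1.69 FPKM in control cells. In RPH3AL the lead passed to RPH3AL-202, with 11.2 FPKM in cytokine cells and 7.50 FPKM in control cells, but its q was 0.215. SYTL3 transcripts stayed under 0.3 FPKM each, so their order carries little.

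**Figure D4:**
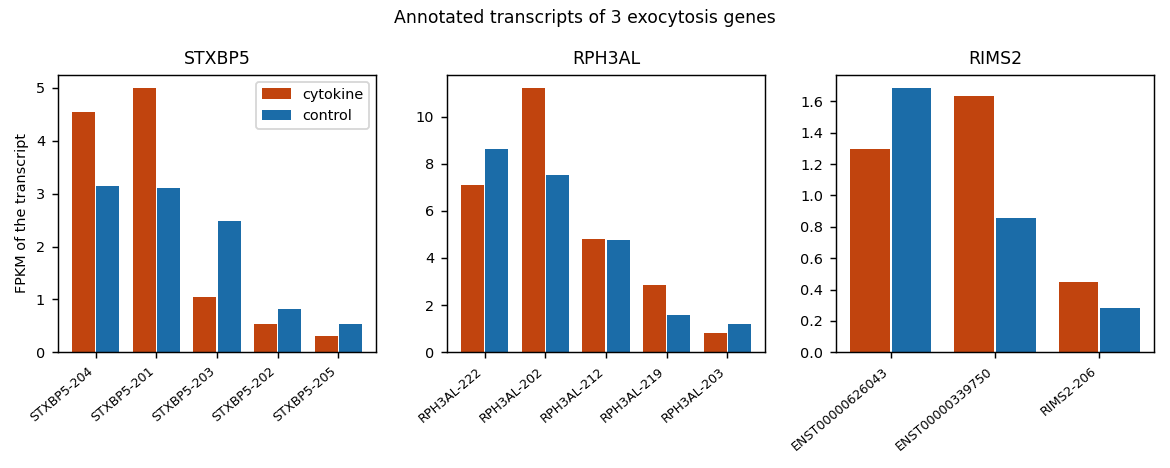
Authors' deposited FPKM of single annotated transcripts of STXBP5, RPH3AL and RIMS2, with cytokine bars left of control bars; each bar is 1 group value with no error. STXBP5-203 had 1.04 FPKM with cytokines and 2.48 FPKM in control, while STXBP5-204 had 4.54 and 3.14 FPKM.

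Other genes of the pathway were counted from lists written out by name. Of 28 tested SNAREs and Munc18-type proteins outside the members, the authors' deposited table had 18 higher and 5 lower. Among the most abundant of these by count were VTI1B, an endosomal SNARE that rose by 0.08 ± 0.02, and YKT6, an R-SNARE of the Golgi, which rose by 0.20 ± 0.03. In the exocyst, which tethers vesicles, 2 of 8 subunits rose and 2 fell, and the most abundant were EXOC4 at -0.20 ± 0.03, EXOC5 at -0.01 ± 0.03 and EXOC7 at 0.19 ± 0.03. Of 9 active zone scaffolds 4 rose and 3 fell, and the most abundant were BSN at -0.11 ± 0.02, RIMBP2 at 0.19 ± 0.02 and PCLO, the scaffold Piccolo, at 0.54 ± 0.03. Of 14 tested genes on a list made for vesicle proteins, 5 rose and 6 fell. Not all of the list codes for proteins of the vesicle membrane, SCG5 and VAPB being exceptions. The most abundant were SYP at 0.10 ± 0.02, SCG5 at 0.26 ± 0.02 and VAPB at -0.49 ± 0.02. For VAPB, Cuffdiff gave a log2 fold change of -0.09 (q = 0.531), so only the count test called it. RIMBP2 had -0.01 there (q = 0.990), so its rise also rests on the count test. Of 9 tested other C2 proteins 1 rose and 3 fell, and ESYT2 and ESYT1, tethers of the endoplasmic reticulum, had -0.11 ± 0.03 and -0.34 ± 0.03. In all, 30 of 68 tested genes rose and 19 fell. Cuffdiff tested 62 of these and called 19 higher and 11 lower. Among those with at least 1000 mean counts, 41 of 51 passed the test, or 80.4%, close to the 78.2% of all loci that abundant.

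The labelled cell type was checked on marker genes. All 16 beta cell markers had at least 10 mean normalized counts, and their deposited FPKM summed to 1457 with cytokines and 1793 in control, with INS and CHGA listed at 0 FPKM although their loci had counts. Among markers of other cells, 0 of 4 endothelial, 1 of 6 leukocyte, 1 of 4 acinar, 2 of 5 fibroblast, 2 of 3 duct, 2 of 3 delta cell and 3 of 4 alpha cell genes reached 10 mean counts, and the part of these lists in the member values was not tested. PRSS1 and PNLIP were at 0 counts. The 6 libraries averaged 40881975 normalized counts each. Single libraries' depths were not analysed here.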

How the data were processed

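Poly(A) RNA of 3 cytokine and 3 control libraries was sequenced. Per the submitters' processing notes, the build was hg38 and the tools were DESeq, Cuffdiff 2.2.1, StringTie, STAR 2.5.2b, FastQC 0.10.1 and bcl2fastq. The notes name neither the read counter nor the annotation nor the strand setting. As deposited by the authors, the signal of a locus is its mean normalized count over 6 libraries, per the file headers. Fold changes deposited by the authors, cytokine over control, and their SE are log2 values. The score the authors deposited is the test statistic, which equals fold change over SE within 9.66e-13 in the count tables. The p-values and q-values are the authors' DESeq and Cuffdiff results as deposited. The FPKM values are the authors' Cuffdiff group values as deposited.

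The files analysed hold group values only, so no planned test on single libraries was run, and the authors' deposited adjusted p at 0.05 was used. It matched a Benjamini-Hochberg adjustment over all 30206 loci within 1.53e-15. Computed here were group mean counts, 95% intervals (1.96 SE), sums and shares of FPKM, fold changes re-centred on the median of loci of at least 1000 counts, and motif matches in RefSeq promoters of GRCh38.p14. Re-centring and adjustment were tested on simulated data. Tools were matplotlib 3.10.9, scipy 1.17.1, numpy 2.4.6, pandas 2.3.3 and Python 3.11.15, and gene bounds come from GENCODE 44. VAMP7 has identical entries on X and Y and was counted once.

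Members and lists were chosen with earlier results of these data known. Full values were given to the most abundant member of each role class, to the called members with the largest changes (up to 4 per direction, at least 10 mean counts) and to members on which the authors' DESeq and Cuffdiff calls differ. Other members with values, such as SNAP25, STX12, VAMP2, VAMP3 and VAMP4, were added after their values were seen. Alternatives tried were Cuffdiff, a threshold of 0.01, re-centring, a minimum of 10 counts and a 1.5-fold minimum. Also tried were loci without another protein-coding gene and a filter of 1 FPKM on transcripts.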

Additional observations from a re-analysis of the deposited data

How the results depend on the processing

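With Cuffdiff's q in place of the DESeq adjusted p, all loci gave 3887 higher calls (5442 with DESeq) and 3911 lower calls (5946). Cuffdiff tested 21865 loci and DESeq 30206. Among members, higher calls came to 17 (21) and lower calls to 11 (18). Calls among SNARE-binding proteins came to 3 (5), among RAB effectors to 3 (5) and among priming factors to 4 (7). With a minimum of 1.5-fold, all loci gave 2831 higher and 2042 lower calls, members 9 and 4, and the classes 4 for SNAREs, 1 for SNARE-binding proteins, 2 for synaptotagmins with double C2 proteins, 3 for RAB effectors and 3 for priming factors. Fewer loci can pass a size minimum by its construction; the cause of the difference between the tests was not tested. Re-centring shifts each fold change by the median of abundant loci, -0.06, and gave 6197 higher and 5142 lower calls over all loci (5442 and 5946 without it). It turned SYT13, near 0 in the authors' table, to 0.055 (adjusted p = 0.0449), brought STXBP3 and CPLX2 past the threshold and lost STX1A. At a threshold of 0.01, 49 of 51 members kept their side of the threshold, with SYT4 and RIMS2 lost. With transcripts of at least 1 FPKM only, the share of the lead transcript with cytokines was 55.8% in RIMS2, 41.9% in RPH3AL and 47.3% in STXBP5, against 42.6%, 38.1% and 43.7% with all transcripts. No paired analysis was possible because the files analysed hold no values per library; for the same reason other size factors and leaving out single libraries were not run.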

Other observations

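Outside the members, 2 related SNAREs, picked after their values were seen, changed more than any SNARE on the list. VAMP5, a VAMP of muscle and other cells, had 167 FPKM with cytokines and 13.3 FPKM in control and a log2 fold change of 3.61 ± 0.06 (SE) in the authors' deposited tables. STX11, a syntaxin of immune cell granules, had 6.57 FPKM with cytokines and 0.315 FPKM in control, and the authors' fold change for it was 4.40 ± 0.19 (adjusted p = 1.67e-119). The α-SNAP relatives NAPG and NAPB rose, as NAPA did, by 0.47 ± 0.05 and 0.16 ± 0.03 in the authors' deposited table. BET1 and BET1L, SNAREs of transport between the endoplasmic reticulum and Golgi, rose by 0.67 ± 0.06 and 0.66 ± 0.05. SV2B, a vesicle glycoprotein, fell by 0.85 ± 0.05, with 4.45 FPKM in cytokine cells and 7.89 FPKM in control cells.

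Around SYTL4 on the X chromosome, the 4 genes listed before it, PCDH19, TNMD, TSPAN6 and SRPX2, each had a mean under 1 normalized count, and CSTF2 after it had 529.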
